A study of Mus musculus with 12 samples.

Results

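The 43 mitotic genes described here encode the kinases, motor proteins and chromosome-binding proteins that take a cell through mitosis. They were chosen by gene symbol from a list of kinases, kinesins, centromere, checkpoint and cytokinesis genes. All 43 were found among the 52550 genes of the deposited tables, and all 43 were among the 16823 genes that passed the filter on low counts and were tested. RNA of D2A1 and D2.OR, cell lines from mammary tumors of the mouse, was sequenced after a week of culture in 2D, on plastic, or in 3D, on a layer of growth-factor-reduced Matrigel (Matrigel on Top, MoT). Each of the 4 groups (D2A1 in 2D, D2A1 in 3D, D2.OR in 2D, D2.OR in 3D) had 3 replicates, which gave 12 libraries. Both lines came from D2 hyperplastic alveolar nodules, each from a tumor of its own, and the labels give no drug or genetic change for these libraries. D2A1 is used as the line that proliferates and metastasizes, and D2.OR as the line that becomes dormant. Each line is a single line, so a difference between them is a difference between those lines and not between classes of tumor. RNA came from pooled wells, and cells in 3D were released from Matrigel with a recovery solution, so that culture and this release cannot be told apart. The methods do not settle whether cells in 2D had the routine medium or the 3D medium. These media differ in their base, in their serum and in the hydrocortisone, cholera toxin and insulin added to the 3D medium. An effect of medium and one of Matrigel may thus not be separable in any value for 3D against 2D.

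Entry into mitosis is driven by cyclin-dependent kinase 1 (Cdk1) bound to cyclin B, and Aurora and Polo-like kinases then organize the spindle. Kinesins, motor proteins that walk along or dismantle microtubules, move and align the chromosomes, which are held at the kinetochore, a protein plate built on centromeric chromatin. The spindle checkpoint keeps the Cdc20-bound anaphase-promoting complex inactive until all kinetochores are attached, after which sister chromatids separate and the cell divides by cytokinesis. Most of these genes are transcribed in G2 and M phase and are repressed in resting cells by the DREAM complex, so that their mRNA is commonly read as a measure of cycling cells.

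The libraries held 47589611 to 73325069 expected counts (median 61747126). The lowest expected count of a member in any library was 227, for Psrc1. The replicate number is also the batch number and each batch had a sequencing lane of its own, so that batch and lane cannot be told apart. Of the luminal markers, Krt19, Epcam and Cdh1 were under 1 TPM (transcripts scaled to a fixed library sum and to gene length) in every D2A1 library and Krt19 also in every D2.OR library, while Krt18 had at least 92.7 TPM throughout. Immune markers other than Cd68 and all 3 endothelial markers stayed under 1 TPM in every library. The summed level of the adipocyte markers Adipoq and Plin1 was 6.49 to 77.0 TPM in D2.OR in 3D and at most 1.61 TPM in the other groups. Most of the sum in D2.OR in 3D was Plin1, with at least 6.33 TPM, while Adipoq had 0.16 to 2.03 TPM. The part of these markers in the results was not tested. Mitochondrial transcripts took 1.42% to 2.20% of the expected counts of a library.

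In TPM the members with the highest mean over the 12 libraries were Cdk1 (172 TPM), the centromeric histone gene Cenpa (171 TPM) and the ubiquitin-conjugating enzyme gene Ube2c (166 TPM). The lowest were the kinetochore gene Cenpf (13.5 TPM), the phosphatase gene Cdc25c (13.9 TPM) and the microtubule-binding gene Psrc1 (14.1 TPM). Together the 43 genes held 2367, 2108 and 1591 TPM in replicates 1 to 3 of D2A1 in 2D and 2834, 4263 and 4612 TPM in D2A1 in 3D. They held 1119, 1713 and 2224 TPM in D2.OR in 2D and 1426, 2388 and 2350 TPM in D2.OR in 3D. The 3 D2A1 3D libraries were thus above all other libraries. The mean sum was 2022 ± 395 TPM (SD, n = 3) in D2A1 in 2D, 3903 ± 942 in D2A1 in 3D, 1685 ± 553 in D2.OR in 2D and 2055 ± 545 in D2.OR in 3D.

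**Figure D1:**
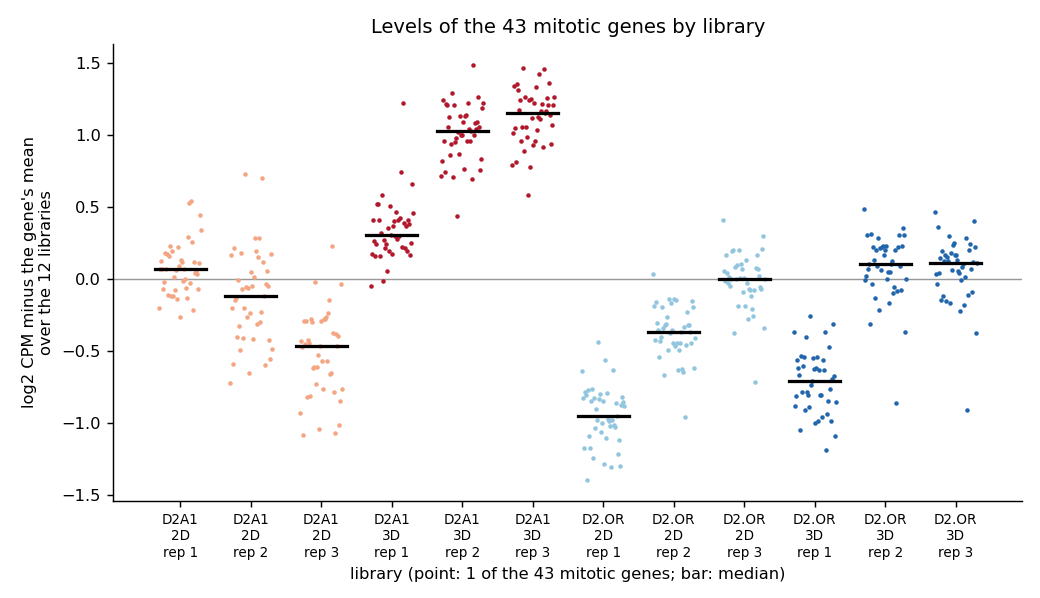
Each point is 1 of the 43 mitotic genes, placed by its log2 CPM (counts scaled to library size, not to gene length) minus its own mean over the 12 libraries, and each bar is the median of a library. The medians of D2A1 in 3D were 0.31, 1.02 and 1.15, and the replicate 1 libraries of the other 3 groups had medians of 0.07 (D2A1 2D), -0.95 (D2.OR 2D) and -0.71 (D2.OR 3D).

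The members moved as a block from library to library. A principal component analysis of log2 CPM over the 43 genes placed 89.9% of their variance on the first component, against 70.3% over all genes tested, where that component separated the cell lines. In 10 of the 12 pairs of replicates within a group at least 39 members differed in 1 direction. The exceptions were replicates 1 and 2 of D2A1 in 2D, where 29 members were lower in replicate 2, and replicates 2 and 3 of D2.OR in 3D, where 26 were lower in replicate 3. In D2A1 in 3D, D2.OR in 2D and D2.OR in 3D, replicate 1 was the lowest of the 3 libraries for all 43 genes. In D2A1 in 2D the order was another one, since replicate 3 was the lowest for all 43 and replicate 1 the highest for 29. The range within a group, as the median over members, was 0.60 log2 units in D2A1 in 2D, 0.81 in D2A1 in 3D, 0.95 in D2.OR in 2D and 0.83 in D2.OR in 3D. In these 3 groups Psrc1 was the member that differed least between replicate 1 and the other replicates, with 5.64, 5.73 and 6.32 TPM in D2.OR in 2D. Aurkb, a kinase of the chromosomal passenger complex, had 14.7, 31.0 and 40.3 TPM in the same libraries.

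Because the members moved together, their promoters were searched for letters known from G2/M genes. The CHR (cell cycle genes homology region) is the element through which DREAM and the activating MuvB complexes reach such promoters, and the CCAAT box is bound by NF-Y. RefSeq windows of 250 bases before and 50 bases after a start site (build GRCm38.p6) were matched by symbol to 35 of the 43 members, in 38 windows. Ccna2, Cdc25c, Foxm1, Aurkb, Incenp, Tpx2, Dlgap5 and Kif20a had no entry. CHR letters (TTTGAA, its reverse complement TTCAAA, or TTCGAA, which reads the same on both strands) were found in 31 of the 38 windows (81.6%) and in 19.2% of all 32851 windows. CCAAT or its reverse complement ATTGG was found in 28 of the 38 (73.7%) and in 37.4% of all windows. Both were found in 68.4% of the member windows and in 7.52% of all windows, and the 2 kinds of match shared bases in 1 member window and in 48 of all windows. Among windows of tested genes alone, CHR letters were found in 14.1% and both kinds in 5.82%. CHR letters were not particular to the members. On lists without members, counted below, they were found in 53.3% (other mitotic regulators), 52.6% (condensin and cohesin) and 41.7% (other kinetochore genes). The shares were 36.8% for DREAM and MuvB regulators, 21.1% for the anaphase-promoting complex and 20.7% for DNA replication. Differences between lists were not tested. A match is a description of letters, not of binding.

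The 100 bases before the start site are shown for 8 members with both kinds of match and for 2 without CHR letters. Psrc1 and Cdc20 were chosen as members that passed in more than 1 comparison below, Ube2c for its high level, Cdk1, Kif11 and Prc1 because they differed least between the lines in 3D, Kif22 as a further kinesin, Top2a for another role, and Ccnb1 and Birc5 as members that lack CHR letters. Each is written 5′ to 3′ on the strand of the gene, in lower case, with the matches in capitals.
Psrc1 (chr3:108383738-108383837, plus strand): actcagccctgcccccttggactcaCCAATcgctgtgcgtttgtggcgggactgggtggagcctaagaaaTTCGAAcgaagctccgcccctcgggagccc
Cdc20 (chr4:118437344-118437443, minus strand): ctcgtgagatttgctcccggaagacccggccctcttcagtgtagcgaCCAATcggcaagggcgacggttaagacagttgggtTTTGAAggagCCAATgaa
Ube2c (chr2:164769829-164769928, plus strand): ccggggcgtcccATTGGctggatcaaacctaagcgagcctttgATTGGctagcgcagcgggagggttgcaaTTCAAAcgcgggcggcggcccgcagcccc
Cdk1 (chr10:69352913-69353012, minus strand): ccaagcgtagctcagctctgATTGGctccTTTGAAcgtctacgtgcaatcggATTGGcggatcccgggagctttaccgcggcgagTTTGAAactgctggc
Kif11 (chr19:37376282-37376381, plus strand): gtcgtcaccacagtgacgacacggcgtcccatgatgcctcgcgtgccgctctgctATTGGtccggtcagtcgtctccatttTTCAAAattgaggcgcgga
Kif22 (chr7:127042421-127042520, minus strand): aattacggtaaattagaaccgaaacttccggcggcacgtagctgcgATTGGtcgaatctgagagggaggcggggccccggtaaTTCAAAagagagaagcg
Prc1 (chr7:80294376-80294475, plus strand): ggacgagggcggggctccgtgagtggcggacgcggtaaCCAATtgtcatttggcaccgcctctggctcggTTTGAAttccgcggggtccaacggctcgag
Top2a (chr11:99024190-99024289, minus strand): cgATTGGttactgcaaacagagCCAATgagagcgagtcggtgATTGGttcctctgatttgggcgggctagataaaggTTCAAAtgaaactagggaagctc
Ccnb1 (chr13:100786487-100786586, minus strand): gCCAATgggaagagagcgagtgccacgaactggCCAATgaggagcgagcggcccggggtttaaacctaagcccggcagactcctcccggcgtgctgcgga
Birc5 (chr11:117849137-117849236, plus strand): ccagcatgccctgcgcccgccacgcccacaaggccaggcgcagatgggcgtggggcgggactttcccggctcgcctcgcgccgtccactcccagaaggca

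In the 8 sequences with both, the CHR letters nearest to the start began 15 (Cdk1) to 30 (Psrc1 and Prc1) bases before it, and a CCAAT box lay farther upstream. Psrc1 and Prc1 have a second RefSeq start each, from which the same letters begin at +5 and at -5. Over the 38 windows, 32 of 43 CHR matches (74.4%) began within 50 bases of the start, against 25.2% of the 7260 matches in all windows. Birc5, Ccnb1, Cenpe, Mad2l1, Nuf2, Nusap1 and Pttg1 had no CHR letters in the window, and 5 of these had neither kind of match. The median log2 fold change from 2D to 3D in D2A1 was 0.95 over these 7 and 1.0 over the 28 with CHR letters, and the difference was not tested.

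**Figure D2:**
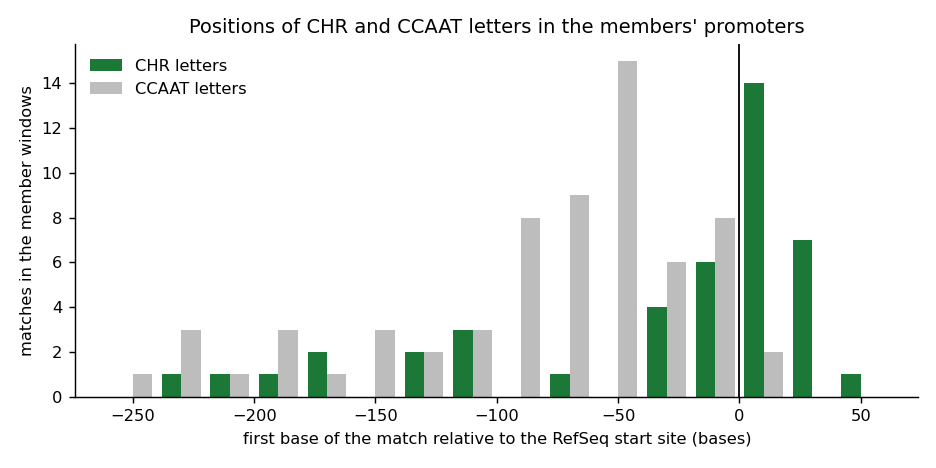
The first base of each CHR match (green) and CCAAT match (grey) in the 38 member windows is counted in bins of 20 bases by its distance from the RefSeq start site, at 0. CHR matches collected around the start site and CCAAT matches upstream of it, with 52 of the 65 CCAAT matches in the 150 bases before the start.

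The first comparison asks how the mitotic genes of the proliferating line D2A1 answered to the change from 2D to 3D. All 43 had an estimate above 0, with a median log2 fold change of 0.98 (1.97-fold), while the median over all genes tested was 0.00. Only 4 passed on their own (edgeR quasi-likelihood test, Benjamini-Hochberg adjusted p under 0.05), which is 9.30% of the members against 1.37% of all genes called higher. The adjusted p-values of the 43 members lay between 0.0346 and 0.121, and all 43 had an unadjusted p under 0.05, as did 31.4% of all genes. On log2 CPM the 3 libraries in 3D lay above the 3 in 2D, without overlap, in 41 of the 43, as for 14.2% of all genes. Tpx2 and Ndc80 overlapped, and in TPM, a scale tried after the data were seen, Cenpe did too (9.56% of all genes did not overlap and were higher in TPM). In bulk libraries a larger share of dividing cells and more mRNA in each dividing cell cannot be told apart, and the p-values measure the spread between these libraries. The study describes its findings in general as repeated biologically, but what separated the replicates of these libraries, other than the batch, is not given in the sources used here.

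The 4 genes that rose were Psrc1, Cdc20, Nusap1 and Ccnb2. Psrc1, which encodes a spindle-associated microtubule-binding protein, had 16.5, 18.5 and 13.8 TPM in replicates 1 to 3 in 2D and 27.1, 28.4 and 29.5 TPM in 3D. All 3 libraries in 3D were well above those in 2D, and its log2 fold change was 0.88 (standard error, SE, 0.15, edgeR adjusted p = 0.0346). Cdc20, the activator of the anaphase-promoting complex, had 88.0, 74.2 and 62.6 TPM in 2D and 118, 193 and 223 TPM in 3D. The groups did not overlap, although replicate 1 was nearest between them, and the log2 fold change was 1.27 (SE 0.27, edgeR adjusted p = 0.0453). Nusap1, which bundles spindle microtubules, had 23.1, 26.9 and 18.1 TPM in 2D and 30.1, 44.0 and 41.1 TPM in 3D, a log2 fold change of 0.83 (SE 0.18, edgeR adjusted p = 0.0466). Some reads of Nusap1 were divided with other genes, and its locus overlaps Oip5. Ccnb2, a B-type cyclin, had 68.8, 87.0 and 68.2 TPM in 2D and 91.5, 150 and 144 TPM in 3D, a log2 fold change of 0.84 (SE 0.19, edgeR adjusted p = 0.0492).

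The other members had values of the same size that did not pass. Among the genes of entry into mitosis, Cdk1 had 147, 105 and 92.8 TPM in 2D and 158, 252 and 267 TPM in 3D, with a log2 fold change of 1.02 (SE 0.31, edgeR adjusted p = 0.0727). Replicate 1 in 2D lay close to replicate 1 in 3D, while the other replicates were far apart. Foxm1, the transcription factor that activates many G2/M genes, had 52.5, 31.6 and 21.6 TPM in 2D and 61.9, 87.2 and 101 TPM in 3D, with a log2 fold change of 1.28 (SE 0.38, edgeR adjusted p = 0.0689). Ccnb1, the main partner of Cdk1, had 70.4, 65.4 and 50.6 TPM in 2D and 89.1, 138 and 147 TPM in 3D (log2 fold change 0.98, SE 0.27, edgeR adjusted p = 0.0624). Birc5 (survivin), a member of the chromosomal passenger complex, had the highest estimate, 1.31, and the kinetochore gene Ndc80 the lowest, 0.46.

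Of the checkpoint genes, Bub1b, which encodes the inhibitor BubR1, had 53.6, 40.9 and 38.6 TPM in 2D and 67.3, 96.2 and 105 TPM in 3D, with a log2 fold change of 1.05 (SE 0.25, edgeR adjusted p = 0.0521). Hmmr, a spindle pole protein gene, had 32.1, 30.9 and 22.4 TPM in 2D and 39.8, 59.8 and 68.8 TPM in 3D (log2 fold change 1.02, SE 0.24, edgeR adjusted p = 0.0517). For both genes all libraries in 3D were above those in 2D. Of the spindle kinases, Aurka had 60.9, 55.4 and 38.7 TPM in 2D and 64.3, 92.1 and 103 TPM in 3D (log2 fold change 0.78, SE 0.28, edgeR adjusted p = 0.101). Aurka was thus almost level in replicate 1 and differed most in replicate 3. Plk1 had 56.1, 36.2 and 29.5 TPM in 2D and 61.4, 84.9 and 101 TPM in 3D (log2 fold change 1.03, SE 0.36, edgeR adjusted p = 0.0935). Aurkb had 43.7, 41.5 and 32.5 TPM in 2D and 51.5, 91.6 and 103 TPM in 3D (log2 fold change 1.08, SE 0.29, edgeR adjusted p = 0.0608). Both kinases again had replicate 1 values that were near each other and did not overlap between the cultures.

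The 9 kinesins had log2 fold changes between 0.87 and 1.16, with none past the threshold and a smallest edgeR adjusted p of 0.0548 (Kif2c, which dismantles microtubules at the centromere). Kif11, the motor that pushes the spindle poles apart, had 22.5, 17.8 and 11.8 TPM in 2D and 26.1, 36.3 and 41.4 TPM in 3D (log2 fold change 1.03, SE 0.32, edgeR adjusted p = 0.0747). Prc1, which bundles the midzone microtubules for cytokinesis, had 60.2, 63.9 and 40.7 TPM in 2D and 64.8, 79.6 and 86.9 TPM in 3D (log2 fold change 0.60, SE 0.22, edgeR adjusted p = 0.102). Its groups were separated by less than 1 TPM, so that Prc1 stood near the low end of the members. Cenpa had 161, 162 and 113 TPM in 2D and 201, 364 and 377 TPM in 3D (log2 fold change 1.07, SE 0.26, edgeR adjusted p = 0.0544). Top2a, the topoisomerase that untangles sister chromatids, had 121, 125 and 95.4 TPM in 2D and 136, 226 and 246 TPM in 3D (log2 fold change 0.89, SE 0.27, edgeR adjusted p = 0.0714).

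The size of the difference depended on the batch. Over the members the medians of batches 1 to 3 were 0.25, 1.15 and 1.66, and each of the 43 was higher in 3D in all 3 batches. DESeq2 called 41 of the 43, with 21.5% of all genes. The edgeR calls turned on D2A1 2D replicate 1: without that library 42 of 43 passed (all but Ndc80, 30.3% of all genes, median 1.40), and without D2A1 3D replicate 1 18 passed (12.8% of all genes). None passed without batch 2, without batch 3, without any of the other 4 D2A1 libraries, without replicate 2 or 3 of either D2.OR culture, or without the batch term (0% to 0.609% of all genes in these fits). Without replicate 1 of D2.OR in 2D 1 passed (2.33% of the members, 2.71% of all genes), and without replicate 1 of D2.OR in 3D 2 passed (4.65%, against 2.08%). The median stayed between 0.67 and 1.40 in these fits.

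**Figure D3:**
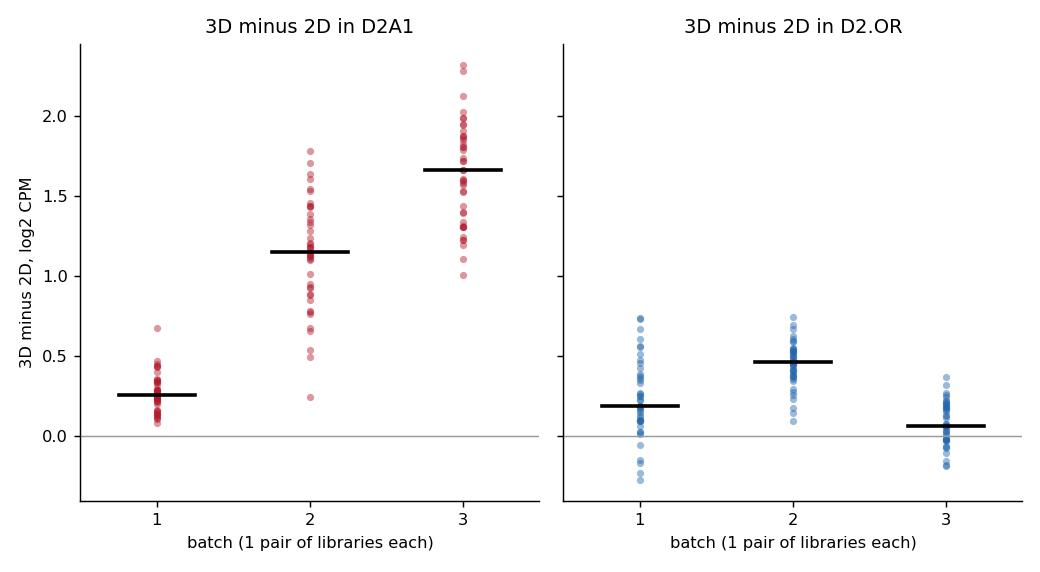
The difference between 3D and 2D in log2 CPM is plotted for each of the 43 members (points) in each batch, for D2A1 on the left and D2.OR on the right, with the median as a bar. In D2A1 the medians were 0.25, 1.15 and 1.66 in batches 1 to 3, and in D2.OR 0.19, 0.46 and 0.06.

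The same comparison in D2.OR, the line used as a model of dormancy, asks whether its mitotic genes fell on Matrigel. None of the 43 passed in either direction with edgeR, DESeq2 or limma, and none had an unadjusted p under 0.05 with edgeR, against 0.838% of all genes called higher, 0.785% called lower and 17.6% at an unadjusted p under 0.05. DESeq2 called 7.35% of all genes. With limma 2 members had an unadjusted p under 0.05, against 17.2% of all genes on log2(TPM + 1). The median log2 fold change was 0.25 (1.19-fold), with 41 members above 0, from -0.09 for Psrc1 to 0.55 for Nuf2. The groups of all 43 overlapped, whereas 10.2% of all genes had 3D libraries above and 12.5% below the 2D libraries without overlap. The SE of a member was 0.16 to 0.39 with all 12 libraries. Without D2A1 2D replicate 1, which enters this contrast only through the estimate of the spread and of the batches, the SE was 0.10 to 0.18. In that fit no member passed (3.67% of all genes did), and 17 had an unadjusted p under 0.05 (23.6% of all genes). The smallest adjusted p was that of Nuf2 (0.55, SE 0.14, edgeR adjusted p = 0.0739).

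Cdk1 had 98.1, 158 and 209 TPM in D2.OR in 2D and 129, 222 and 223 TPM in 3D. Cdc20 had 41.4, 61.9 and 80.3 TPM in 2D and 51.7, 91.5 and 89.1 TPM in 3D, and Plk1 had 26.8, 41.7 and 59.4 TPM against 33.0, 60.6 and 57.2 TPM. In each of these genes the spread between replicates was wider than the distance between the cultures, with replicate 1 the lowest in both. Bub1b (24.8, 28.1 and 42.7 TPM against 23.1, 35.9 and 40.9 TPM), Aurka (22.5, 34.2 and 49.4 against 26.3, 44.4 and 43.2 TPM) and Psrc1 (5.28, 6.31 and 5.73 TPM in 3D) were nearly level. The member with the smallest p was Nuf2, a subunit of the Ndc80 complex that grips microtubules, with 11.6, 20.7 and 25.3 TPM in 2D and 20.2, 33.9 and 31.6 TPM in 3D (log2 fold change 0.55, SE 0.28, edgeR adjusted p = 0.352). Next came Kif15 (0.47, SE 0.26, edgeR adjusted p = 0.377), Kif4 (0.39, SE 0.22, edgeR adjusted p = 0.397), Incenp (0.33, SE 0.19, edgeR adjusted p = 0.398), Spc25 (0.41, SE 0.24, edgeR adjusted p = 0.402) and Ccna2 (0.50, SE 0.31, edgeR adjusted p = 0.436). The medians by batch were 0.19, 0.46 and 0.06, and 29 of the 43 were higher in 3D in all 3 batches. When only the D2.OR libraries were fitted, 1 member passed (5.16% of all genes called) and 19 had an unadjusted p under 0.05 (25.9% of all genes). The median became 0.11, 0.16 or 0.44 when replicate 1, 2 or 3 of D2.OR in 2D was left out, 0.15 when replicate 2 of D2.OR in 3D was, and 0.11 when batch 2 was, with 36 to 43 members above 0.

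Whether the 2 lines answered differently to 3D was tested by the interaction of cell line and culture. All 43 members had a lower change in D2.OR than in D2A1, with a median interaction of -0.71 log2 units and a range of -1.11 (Bub1b) to -0.26 (Spc25). None passed with edgeR, nor did more than 0.0238% of all genes, and 10 members (23.3%) had an unadjusted p under 0.05, against 17.8% of all genes. With DESeq2 1 member passed (2.33%, against 5.81% of all genes) and with limma none. The smallest p was that of Psrc1 (-0.98, SE 0.22, edgeR adjusted p = 0.110), followed by Bub1b (-1.11, SE 0.35, edgeR adjusted p = 0.173). Ccnb2 (-0.71, SE 0.27, edgeR adjusted p = 0.226), Pttg1, the securin that holds separase (-0.78, SE 0.30, edgeR adjusted p = 0.227), Cdc20 (-0.97, SE 0.38, edgeR adjusted p = 0.231) and Anln, the contractile ring scaffold (-0.96, SE 0.38, edgeR adjusted p = 0.236), came next.

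The median interaction was near 0 in batch 1, at -0.02, and was -0.71 and -1.54 in batches 2 and 3. It was below 0 in all 3 batches for 21 of the 43. Among the named genes, Psrc1 (-0.85, -0.69 and -1.42) and Bub1b (-0.61, -1.11 and -1.76) kept a value in batch 1, whereas Kif11 (0.33, -0.68 and -1.75) and Top2a (0.30, -0.71 and -1.54) had the opposite sign there. Without D2A1 2D replicate 1, 37 of the 43 passed (14.5% of all genes), with a median of -1.14, and the 6 that did not were Nusap1, Prc1, Tpx2, Incenp, Spc25 and Ndc80. Without batch 1 33 passed (17.8% of all genes), and without any other single library none did (0.00576% to 2.94% of all genes). The median was -0.33 without batch 3, with 3 members above 0, and -0.39 without D2A1 2D replicate 3, with 1 above 0.

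The cell lines differed most clearly in 3D. All 43 members had an estimate below 0 for D2.OR against D2A1, with a median log2 fold change of -0.98 (1.97-fold lower), and 35 were called lower (81.4%), against 26.1% of all genes called lower. On log2 CPM the D2.OR libraries lay below the D2A1 libraries without overlap in 31 members (72.1%), as for 30.2% of all genes, and in TPM in 36, as for 28.3% of all genes. The medians of the 3 batches were -1.05, -0.90 and -1.02, so that this difference, unlike the effect of 3D, was of nearly 1 size in all batches. Over all genes the median was 0.00. Markers of cell type also differed between the lines: over both cultures, in D2A1 the luminal keratin gene Krt8 had 0.78 to 2.31 TPM and the 3 fibroblast markers (Pdgfra, Col1a1 and Dcn) summed to 15.7 to 41.2 TPM, against 227 to 1022 TPM and 88.7 to 212 TPM in D2.OR. In 3D alone Krt8 had 227 to 527 TPM in D2.OR, and Dcn overlapped (0.51 to 6.89 TPM in D2A1, 0.48 to 2.53 TPM in D2.OR). Of the mesenchymal markers in 3D, Zeb1 was lower in D2.OR (1.23 to 4.34 TPM against 11.8 to 16.4 TPM). Zeb2 was higher (67.05 to 80.41 TPM against 20.5 to 21.2 TPM), and Vim and Fn1 overlapped. Their part in the result was not tested.

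Psrc1 differed most, with 28.3 ± 1.19 TPM (SD, n = 3) in D2A1 and 5.77 ± 0.516 TPM in D2.OR, a log2 fold change of -2.37 (5.18-fold lower, SE 0.16, edgeR adjusted p = 5.61e-06). Pttg1 had 136, 186 and 189 TPM in D2A1 in 3D and 41.8, 65.3 and 64.6 TPM in D2.OR in 3D (log2 fold change -1.62, SE 0.21, edgeR adjusted p = 0.000280). For both genes even the highest D2.OR library was below the lowest D2A1 library by more than 2-fold. Hmmr had 39.8, 59.8 and 68.8 TPM against 14.6, 23.3 and 22.6 TPM (-1.51, SE 0.24, edgeR adjusted p = 0.000763). Bub1b was lower by the same amount (-1.51, SE 0.25, edgeR adjusted p = 0.000930), and Nusap1 (-1.22, SE 0.18, edgeR adjusted p = 0.000497) and Ndc80 (-1.16, SE 0.18, edgeR adjusted p = 0.000708) completed the 6 members with the smallest p.

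By role, all 6 centromere and kinetochore genes, all 4 checkpoint genes, all 3 genes of anaphase onset and Top2a were called lower. Cenpa had a log2 fold change of -1.40 (SE 0.26, edgeR adjusted p = 0.00194), Cdc20 of -1.22 (SE 0.27, edgeR adjusted p = 0.00413) and Top2a of -1.03 (SE 0.27, edgeR adjusted p = 0.00952). Of the passenger complex 3 of 4 were called lower, Aurkb among them (-1.08, SE 0.28, edgeR adjusted p = 0.0102), and Birc5 had -0.98 (edgeR adjusted p = 0.0580). Of the 7 spindle assembly genes 6 were called lower, including Aurka (-1.21, SE 0.28, edgeR adjusted p = 0.00539), while Plk1 had -0.75 (SE 0.35, edgeR adjusted p = 0.0979). Of the 6 genes of entry into mitosis 4 were called lower, including Ccnb1 (-0.80, SE 0.27, edgeR adjusted p = 0.0300), and Foxm1 had -0.87 (SE 0.37, edgeR adjusted p = 0.0718).

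Of the 9 kinesins 6 were called lower and of the 3 cytokinesis genes 2 were. The 3 members with the smallest difference were Cdk1 (-0.29, SE 0.30, edgeR adjusted p = 0.444), Prc1 (-0.31, SE 0.22, edgeR adjusted p = 0.241) and Kif11 (-0.47, SE 0.31, edgeR adjusted p = 0.223). Kif11 had 19.0, 28.2 and 28.9 TPM in D2.OR in 3D and Prc1 51.9, 69.9 and 69.6 TPM, and both overlapped with D2A1. Cdk1 and Psrc1 therefore marked the ends of the list: in 3D D2.OR had 191 ± 54.3 TPM of Cdk1 against 225 ± 59.0 in D2A1 (SD, n = 3), but a 5.18-fold lower level of Psrc1.

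**Figure D4:**
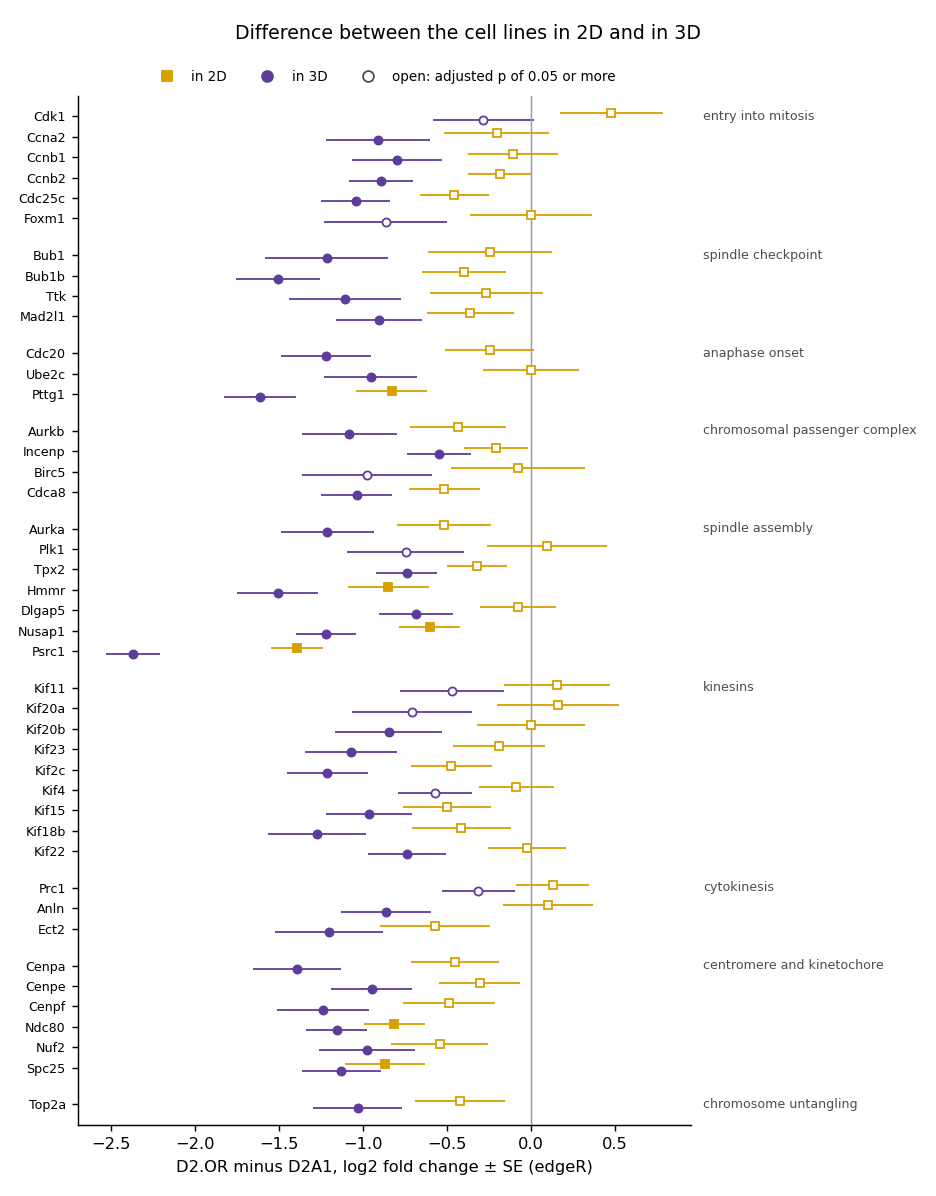
The log2 fold change of D2.OR against D2A1 (edgeR, bars ± SE) is shown for each member in 2D (squares) and in 3D (circles), grouped by role, with filled symbols for an edgeR adjusted p under 0.05. In 3D all 43 lay below 0 and 35 were filled, and in 2D 36 lay below 0 and 6 were filled.

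The 35 calls depended on the libraries more than the direction did. All 43 stayed below 0 in each alternative fit, and 11 were called in all 24 of them: Cdc25c, Bub1b, Cdc20, Pttg1, Cdca8, Hmmr, Nusap1, Psrc1, Kif2c, Cenpa and Ndc80. The share of all genes called in all 24 was not computed, while single fits called 28.9% to 59.5% of all genes. Whether 11 is more than for other genes was thus not tested. The count was 12 without batch 2, or 27.9% of the members against 31.0% of all genes called in either direction. It was 22 without D2.OR 3D replicate 1 (45.9% of all genes) and 23 without D2A1 3D replicate 2 (42.2%) or 3 (42.5%). It was 42 (59.5% of all genes) without D2A1 2D replicate 1, a library that enters this contrast only through the estimate of the spread and of the batches, and all 43 passed when only the 3D libraries were fitted (57.6% of all genes).

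In 2D the mitotic genes of the 2 lines were closer. The median log2 fold change of D2.OR against D2A1 was -0.31, and 6 members (14.0%) were called lower and none higher, while 24.4% of all genes were called lower and 25.4% higher. In this fit a smaller share of the members than of all genes was called. The 6 were Psrc1 (-1.39, SE 0.16, edgeR adjusted p = 0.000116), Ndc80 (-0.82, SE 0.18, edgeR adjusted p = 0.00542), Pttg1 (-0.83, SE 0.21, edgeR adjusted p = 0.0103), Spc25 (-0.87, SE 0.24, edgeR adjusted p = 0.0139), Hmmr (-0.85, SE 0.24, edgeR adjusted p = 0.0162) and Nusap1 (-0.60, SE 0.18, edgeR adjusted p = 0.0206). On log2 CPM these same 6 genes were also the only members whose groups did not overlap in 2D, as for 25.6% of all genes, while in TPM Cdc25c was separated too, as were 30.7% of all genes. All 6 were lower in 3D too. The Ndc80 complex subunits Ndc80 and Spc25 had 20.9, 34.8 and 20.6 TPM and 33.9, 34.3 and 25.3 TPM in D2A1, against 9.56, 13.5 and 16.8 TPM and 10.6, 16.5 and 22.2 TPM in D2.OR.

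The direction of the remaining members in 2D was not the same in the 3 batches. The medians of batches 1 to 3 were -0.97, -0.21 and 0.45, and the number of members higher in D2.OR was 0, 11 and 37. Without D2A1 2D replicate 1 the median turned to 0.09, with 11 members higher and 5 lower (51.2% of all genes called). The 11 then higher in D2.OR were Cdk1 (0.48 with all 12 libraries and now 1.04, SE 0.12, edgeR adjusted p = 0.000297), Kif20a, Plk1, Foxm1, Kif11, Birc5, Kif20b, Anln, Bub1, Kif22 and Ttk, and the 5 lower were the 6 named above without Nusap1. Without D2A1 2D replicate 3 it was -0.63, with 21 lower, which is 48.8% of the members against 44.3% of all genes called, so that the members' share was then the larger one. Without D2A1 2D replicate 2 it was -0.47, with 5 lower (39.6% of all genes). Without D2.OR 2D replicate 1 or 2 it was -0.20 or -0.27, with 3 lower (42.2% or 37.4% of all genes). Without batch 1 9 were higher and 4 lower (53.8% of all genes), without batch 3 13 were lower (31.8%), and without batch 2 only Psrc1 passed (24.9%). Psrc1 was lower in all 24 alternatives.

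**Figure D5:**
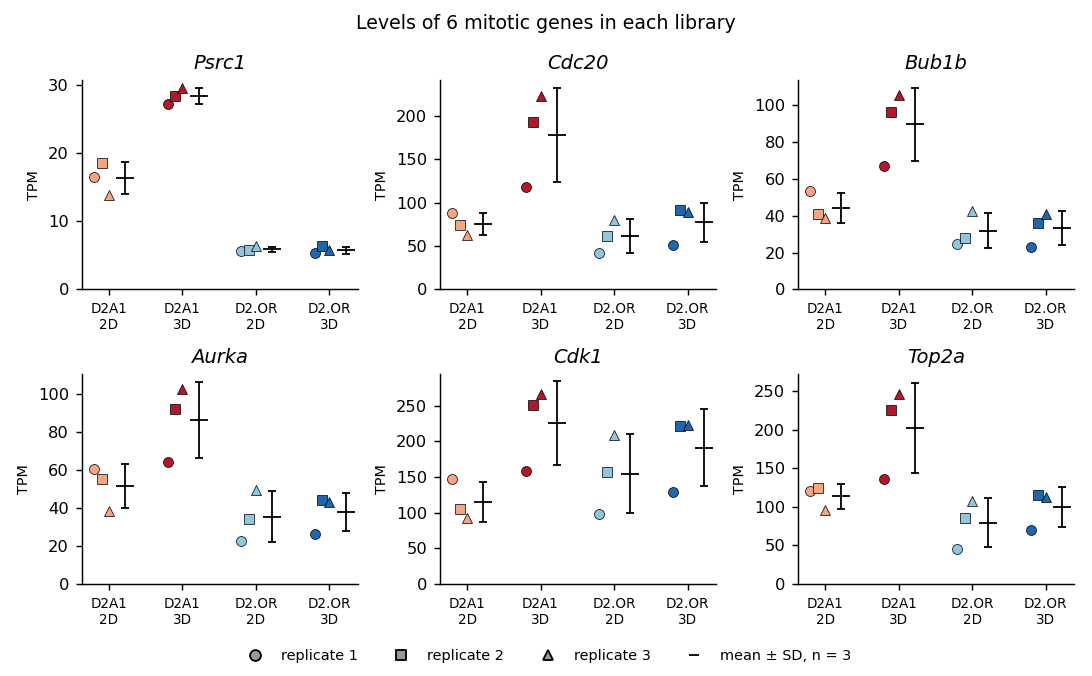
The level in TPM of 6 members is shown in each library, with the replicate given by the shape of the symbol and the mean ± SD (n = 3) beside it. Psrc1 separated the 2 lines in both cultures (13.8 to 29.5 TPM in D2A1 and 5.28 to 6.32 TPM in D2.OR), while Cdk1 of D2.OR in 3D (129 to 223 TPM) overlapped with D2A1 in 3D (158 to 267 TPM).

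Over the 4 groups, all 43 members had estimates above 0 for batch 2 and for batch 3 against batch 1, with medians of 0.44 and 0.50 log2 units. Ccnb2 and Ndc80 passed in batch 2 (4.65% of the members, 2.59% of all genes called higher), and Ccnb2 passed in batch 3 (2.33%, against 3.03% of all genes). Batches 2 and 3 differed by a median of 0.05, which ran from -0.10 to 0.26 when 1 library was left out. No member was called there by edgeR (0% of all genes), DESeq2 or limma, and none had an unadjusted p under 0.05 (2.72% of all genes). Leaving out D2A1 2D replicate 1 gave 39 members higher in batch 2 and 40 in batch 3 (13.5% and 16.9% of all genes called). Leaving out D2A1 2D replicate 3 gave 10 and 26 (7.70% and 10.2% of all genes), and no other left-out library gave more than 1.

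Other genes of mitosis and of the S phase that precedes it were counted on lists that hold no member. In D2A1, 4 of 36 other kinetochore genes were higher in 3D, beside 1.37% of all genes, with a median log2 fold change of 0.83, among them Spc24 (1.24, SE 0.25, edgeR adjusted p = 0.0412) and Cenpp (1.16, SE 0.23, edgeR adjusted p = 0.0420). Of 33 DNA replication genes 2 were higher (median 0.92), Cdt1 (0.58, SE 0.13, edgeR adjusted p = 0.0489), which licenses origins, and its inhibitor Gmnn (1.07, SE 0.24, edgeR adjusted p = 0.0499). None of 32 other mitotic regulators passed (median 0.88, smallest edgeR adjusted p 0.0513 for Aspm), and Mki67, the gene of the Ki-67 proliferation antigen, had 1.16 (SE 0.34, edgeR adjusted p = 0.0687). None of 20 condensin and cohesin genes (median 0.60, smallest edgeR adjusted p 0.0513 for Ncapd2 and Sgo2a), of 18 DREAM and MuvB regulators (0.27, Mybl2 at 0.0640) or of 17 anaphase-promoting complex genes (0.16, Anapc11 at 0.0534) passed. In D2.OR none of the genes on these 6 lists passed, beside 1.62% of all genes called in either direction, and their medians lay between -0.01 and 0.35.

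The same lists were counted for the lines in 3D, where 26.1% of all genes were called lower and 53.8% in either direction; differences between the lists were not tested. D2.OR was lower than D2A1 for 20 of 36 other kinetochore genes (median -0.60, with Oip5 at -1.19, edgeR adjusted p = 0.000754), 18 of 32 other mitotic regulators (-0.81, with Nek2 at -1.19, edgeR adjusted p = 0.000431), 17 of 33 DNA replication genes (-0.82, with Rfc4 at -1.50, edgeR adjusted p = 9.23e-05) and 12 of 20 condensin and cohesin genes (-0.55, with Smc1a at -0.61, edgeR adjusted p = 0.000283). Among the DREAM and MuvB regulators 9 were lower and 2 higher (median -0.47, with E2f2 at -2.02, edgeR adjusted p = 0.000161). The subunits and coactivators of the anaphase-promoting complex were mixed, with 4 lower and 3 higher (median -0.17, with Anapc16 at 0.91, edgeR adjusted p = 0.000815). Mki67 had -0.28 (SE 0.33, edgeR adjusted p = 0.496), closer to Cdk1 than to most members.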

How the data were processed

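Per the labels and the study's methods, the authors trimmed reads with Trimmomatic 0.32, aligned them with STAR 2.5.3 to GRCm38 and quantified them with RSEM 1.3.0. The deposited expected counts (estimated counts, which need not be whole) were rounded to whole numbers. The deposited TPM values were computed by the authors from these counts per gene length and library, and were used for levels. The strand setting of the libraries is not given in the sources used here, so that reads of overlapping genes may be shared. Counts of Nusap1, Ccna2, Ccnb1, Kif20a and Kif4 were not whole in any of the 12 libraries.

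Differences were tested with edgeR 4.0.16 in R 4.3.3 (quasi-likelihood test, TMM, filterByExpr, 1 term for each of the 4 groups and the batch as a block, all 12 libraries), with Benjamini-Hochberg adjustment over 16823 genes and a threshold of 0.05. Log2 CPM used a prior count of 2. The labels give the batch that pairs equal replicate numbers. Deviations from the group means correlated at 0.0758 to 0.511 (median 0.267, 18 pairs) between libraries of the same number. Between others they correlated at -0.432 to 0.296 (median -0.195, 36 pairs), so that the ranges overlapped. Because deviations within a group cancel, positive values for equal numbers by themselves pull the others toward negative values. The common biological coefficient of variation was 21.2%. Alternatives were limma 3.58.1 with log2-transformed TPM (pseudocount 1 or 0.1), the likelihood-ratio test of DESeq2 1.42.0, other scalings and filters, fits of the compared libraries alone, and fits that left out 1 batch or 1 library at a time. The fits were also run on simulated data with known differences, whose outcome is not given here.

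The rule for the members uses gene symbols alone, but the members and all lists were chosen with earlier results of these data known. Full statistics are given for the 6 members with the smallest p in each comparison of groups and, for D2A1 between cultures and the lines in 3D, for Cdk1, Bub1b, Cdc20, Aurkb, Aurka, Kif11, Prc1, Cenpa, Top2a, Plk1, Ccnb1 and Foxm1, and genes of the other lists are named only from the 2 with the smallest p in a contrast, plus Mki67.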

Additional observations from a re-analysis of the deposited data

How the results depend on the processing

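The direction of the median log2 fold change of the 43 members was the same in all alternatives for 3D against 2D in D2A1 (left-out batches or libraries gave 0.67 to 1.40), 3D against 2D in D2.OR (0.11 to 0.44), the interaction (-1.14 to -0.33) and D2.OR against D2A1 in 3D (-1.11 to -0.86, and -1.08 with the library total alone). For D2.OR against D2A1 in 2D it ran from -0.66 to 0.09 and was above 0 without replicate 1 (0.0839) and without D2A1 2D replicate 1 (0.0892). The library total alone put the median of all genes at -0.17 in that comparison and at -0.10 in 3D, and the members moved with it. The counts of members called are given here with the share of all genes called in the same fit in parentheses. For 3D against 2D in D2A1 the 4 calls (3.48%) were 0 without the batch block that pairs the replicates (0.309%), 0 with only the libraries compared (0.0981%), 1 with limma on log2(TPM + 0.1) (1.44%), 7 with DESeq2's size factors (4.71%), 7 with at least 10 counts in every library (5.98%), 24 without a filter (3.75%) and 41 with DESeq2 (21.5%), and 0 to 42 over left-out libraries and batches (0% to 36.3%). In D2.OR 1 was called with only the libraries compared (5.16%) and 0 over left-out libraries and batches (0% to 8.38%), and for the interaction 1 with DESeq2 (5.81%) and 0 to 37 (0% to 17.8%). For D2.OR against D2A1 in 2D the 6 calls (49.8%) became 10 with the library total alone (52.3%), 2 with only the libraries compared (37.5%) and 1 to 21 over left-out libraries and batches (24.9% to 53.8%), and in 3D the 35 (53.8%) became 12 to 42 (31.0% to 59.5%). Batch 2 against batch 1 gave 7 with DESeq2 (13.8%), 1 with limma on log2(TPM + 1) (5.06%), 0 with limma on log2(TPM + 0.1) (4.12%) and 0 to 39 over left-out libraries (1.73% to 13.5%). Batch 3 against batch 1 gave 9 with DESeq2 (16%), 0 with limma on log2(TPM + 1) (5.72%) and on log2(TPM + 0.1) (4.86%), 2 with DESeq2's size factors (8.10%), 3 without a filter (4.63%) and 0 to 40 (1.22% to 16.9%). The cause was not tested. Without the block the calls between the lines were 4 in 2D (43.9%) and 29 in 3D (47.8%), while no member was called in D2.OR or for the interaction with or without it. Whether depth limited any call was not tested.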

Other observations

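Of the 18 DREAM and MuvB regulators, 13 were above 0 and 5 below 0 for 3D against 2D in D2A1, and none was called by edgeR, while 10 had an unadjusted p under 0.05, as did 31.4% of all genes. In D2A1 the B-Myb gene Mybl2, whose product joins MuvB to activate G2/M genes, had a log2 fold change from 2D to 3D of 1.55 (SE 0.43, edgeR adjusted p = 0.0640, n = 3 per group), with 0.34 in batch 1, 2.20 in batch 2 and 2.54 in batch 3. Rbl1, the gene of the pocket protein p107, had 0.60 (SE 0.17, edgeR adjusted p = 0.0653). In D2.OR the smallest p of the list was that of Lin52 (0.33, SE 0.15, edgeR adjusted p = 0.292). Rb1, the retinoblastoma gene, had an interaction of 0.82 (SE 0.34, edgeR adjusted p = 0.253), with 0.09, 0.76 and 1.64 in the 3 batches, the opposite sign to the 43 mitotic genes.

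The effect of 3D in D2A1 was smallest in batch 1 on the other lists too, as a description without a test. In batches 1 to 3 the medians were 0.15, 1.27 and 1.58 for the DNA replication genes, 0.14, 0.90 and 1.25 for the other kinetochore genes, 0.21, 1.16 and 1.5 for the other mitotic regulators and 0.11, 0.65 and 0.86 for the condensin and cohesin genes. They were -0.02, 0.36 and 0.53 for the DREAM and MuvB regulators and 0.03, 0.28 and 0.29 for the anaphase-promoting complex genes. In the interaction, the DNA replication genes had 0.32, -0.69 and -1.40.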
